A study of Mus musculus with 10 samples.

Results

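The T cell receptor β chains examined here are those whose V, D and J segments meet with no inserted base. They were chosen from the deposited clonotype tables: a clonotype is 1 V segment, 1 J segment and 1 nucleotide CDR3 (complementarity-determining region 3, the stretch across the joins that contacts antigen). A complete CDR3 runs from the first C to the last F. A complete clonotype belonged to the group when the deposited segment positions left 0 bases unassigned between V and D and between D and J, or between V and J where no D was named. These insert-free clonotypes (members) numbered 5423 of 28773 complete and 29481 listed clonotypes. Of the members, 850 came from skin and 4573 from lymph node.

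All T cells came from mice. The wild-type (WT) strain was C57BL/6-N/Crl, and the knockout was B6.129P2-Tcrdtm1Mom/J (Tcrd-/-), a line that lacks the δ chain and therefore γδ T cells in every tissue. Of the 10 samples of the series, 9 held β chain transcripts: 3 Tcrd-/- epidermal libraries (A, B, C), 2 bulk Tcrd-/- dermal libraries (A, B), and 1 library each of Tcrd-/- CD103+ dermal, Tcrd-/- CD103hi dermal, WT dermal and Tcrd-/- peripheral lymph node cells. The skin was ear skin, and ages are not given in the sources used here. Living CD45+ cells were sorted, as CD3hiTCRβhi from epidermis and as CD3+TCRβ+ elsewhere, with CD103+ or CD103hi added for those 2 sorts, so tissue and sort gate cannot be told apart between epidermis and dermis. Each library was 1 pool of 5 to 18 animals. The libraries held between 31823 and 189162 reads, and reads of RNA without molecular identifiers cannot tell a clone with more cells from one with more RNA per cell.

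A β chain gene is put together in the thymus by joining a TRBD segment to a TRBJ segment and then a TRBV segment to TRBD. Segment ends are trimmed before joining, hairpin opening can leave a few palindromic bases at an untrimmed end, and terminal deoxynucleotidyl transferase (TdT) can add random bases. TdT is scarce in fetal and newborn thymocytes, whose junctions are often short and joined where both ends share a few bases, and the γδ receptor of normal mouse epidermal T cells is a known example of a junction without added bases. CD103 is the αE integrin chain that binds E-cadherin on epithelial cells.

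The sequences of the 2 germline D segments and of the largest members carry the findings below. They are written 5′ to 3′, and capitals mark the bases the files assign to D or, where no D was named, the bases assigned to both V and J. TRBD1 lies at chr6:41533201-41533212 and TRBD2 at chr6:41542163-41542176 (GRCm38, plus strand, GENCODE M21).
TRBD1 germline: gggacagggggc
TRBD2 germline: gggactgggggggc
epidermal A, TRBV12-2 with TRBJ2-1: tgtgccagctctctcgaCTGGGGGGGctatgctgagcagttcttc
epidermal A, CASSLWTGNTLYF: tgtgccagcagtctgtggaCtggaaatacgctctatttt
epidermal B, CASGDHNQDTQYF: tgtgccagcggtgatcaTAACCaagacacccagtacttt
epidermal B, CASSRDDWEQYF: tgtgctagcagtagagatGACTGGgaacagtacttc
epidermal C, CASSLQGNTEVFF: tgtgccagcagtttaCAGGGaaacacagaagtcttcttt
epidermal C, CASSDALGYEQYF: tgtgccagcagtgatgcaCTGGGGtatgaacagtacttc
dermal A, TRBV13-3 with TRBJ2-5: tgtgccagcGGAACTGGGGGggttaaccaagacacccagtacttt
dermal A, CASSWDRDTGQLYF: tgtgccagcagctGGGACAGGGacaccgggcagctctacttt
dermal B, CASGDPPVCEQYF: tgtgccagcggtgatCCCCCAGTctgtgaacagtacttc
dermal B, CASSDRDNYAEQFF: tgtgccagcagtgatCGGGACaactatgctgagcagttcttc
CD103+ dermal, TRBV13-2 with TRBJ2-7: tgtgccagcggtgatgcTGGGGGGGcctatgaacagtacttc
CD103+ dermal, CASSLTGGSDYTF: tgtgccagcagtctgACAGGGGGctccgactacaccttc
CD103hi dermal, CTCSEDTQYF: tgcacctgcagtgAAGAcacccagtacttt
CD103hi dermal, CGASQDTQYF: tgtggtgcTAGccaagacacccagtacttt
WT dermal, TRBV13-2 with TRBJ2-2: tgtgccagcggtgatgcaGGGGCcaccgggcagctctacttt
WT dermal, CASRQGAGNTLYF: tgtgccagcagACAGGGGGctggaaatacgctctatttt
lymph node, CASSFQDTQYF: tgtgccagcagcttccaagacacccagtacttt
lymph node, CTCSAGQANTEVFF: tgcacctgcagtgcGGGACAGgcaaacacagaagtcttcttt

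The share of complete clonotypes that were insert-free is what chose the members, so it is given without a test, with Wilson 95% intervals that cover counting error only. It was 46.1% (40.5 to 51.7) in epidermal A, 46.3% (41.3 to 51.2) in epidermal B and 36.6% (26.4 to 48.2) in epidermal C. Both bulk dermal libraries were lower, A at 18.4% (13.9 to 24.0) and B at 17.6% (10.6 to 27.8). The CD103+ sort had 30.9% (26.8 to 35.4), the CD103hi sort 45.3% (40.5 to 50.2), WT dermis 20.2% (17.2 to 23.4) and lymph node 17.4% (17.0 to 17.9). By reads the epidermal libraries stood further out, at 69.2%, 54.7% and 56.9% of the reads of complete clonotypes, against 23.1% and 8.88% in bulk dermis, 26.1% in the CD103+ sort and 48.0% in the CD103hi sort. Just outside the rule, clonotypes with 1 inserted base made up 9.87%, 14.5% and 11.3% of complete clonotypes in epidermis A, B and C, 16.1% and 21.6% in dermis A and B, and 15.7% in lymph node.

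**Figure D1:**
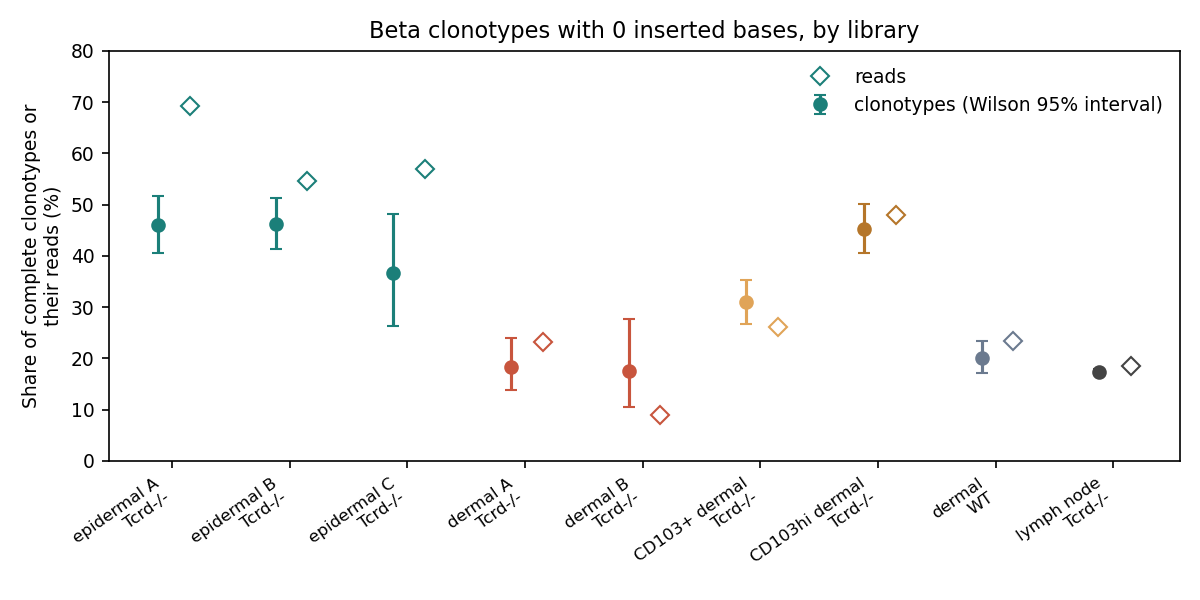
Share of complete β clonotypes (circles, with Wilson 95% intervals) and of their reads (diamonds) with 0 inserted bases, in percent, for each of the 9 libraries. The 3 epidermal libraries and the CD103hi sort lie between 36.6 and 46.3% of clonotypes, and the other libraries between 17.4 and 30.9%.

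Libraries of 1 set share some clonotypes in very unequal amounts. The library names in the labels form 3 sets: lymph node, dermal A and epidermal A; the 2 CD103 sorts and epidermal B; WT dermal, dermal B and epidermal C. A member was called a trace when its read share was under 1% of that of the same nucleotide clonotype in another library of its set. Traces made up 13 of 41 members in dermal A, 35 of 137 in the CD103+ sort, 6 of 26 in epidermal C and between 0 and 7 in each other library. Leaving traces out, the insert-free share was 13.8% in dermal A, 26.8% in the CD103+ sort and 39.2% in epidermal C.

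TRBD2 was named more often than TRBD1 among epidermal A and B members. TRBD1 and TRBD2 are short G-rich segments, and TRBD2 lies between the TRBJ1 and TRBJ2 clusters. Among all members, TRBD1 was named in 2310, TRBD2 in 1772 and no D in 1341. TRBD2 was named in 45.0%, 57.5% and 38.5% of the members of epidermis A, B and C, in 31.7% and 15.4% of those of dermis A and B, and in 31.4%, 41.0%, 45.8% and 30.7% of those of the CD103+ sort, the CD103hi sort, WT dermis and lymph node. The epidermal libraries therefore lay above both bulk dermal libraries, while WT dermis lay among the epidermal values.

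The members of epidermal A and B read TRBD2 mostly in the frame that encodes aspartate, tryptophan and glycine (DWG). The codon frame could be fixed for members whose D bases matched the germline segment exactly at 1 place. In frame 3, which reads DWGG, were 35 of 60 such TRBD2 members in epidermal A (58.3%), 65 of 96 in epidermal B (67.7%) and 4 of 9 in epidermal C (44.4%). The CD103hi sort had 53 of 72 in that frame (73.6%) and the CD103+ sort 20 of 42 (47.6%). Lymph node members were spread nearly evenly, with 32.01% in frame 1 (GTGG), 31.7% in frame 2 (GLGG) and 36.3% in frame 3 of 1131 members. WT dermis resembled that spread, at 31.9%, 31.9% and 36.2% of 47 members. Bulk dermis gave too few for a distribution, with 2 of 10 in frame 3 in dermal A and 0 of 1 in dermal B. TRBD1 showed no such lean to its frame 3, which held 20.8%, 28.3% and 7.69% of the framed TRBD1 members in epidermis A, B and C and 32.6% in lymph node.

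Counted in the protein sequence, the DWG run occurred inside the CDR3 of 16.4%, 26.8% and 15.4% of members in epidermis A, B and C. It occurred in 4.88% (2 of 41) in dermal A and in 0 of 13 in dermal B, which allows up to 23.1%. Epidermis averaged 19.5% ± 6.32 (SD, n = 3) against 2.44% ± 3.45 (SD, n = 2) for dermis, without overlap. With 3 libraries against 2 the exact two-sided permutation test cannot go below p = 0.2, which was the p here (adjusted p = 0.6 over the 9 residue runs examined). The run was also frequent in the CD103hi sort at 20.8%, lower in the CD103+ sort at 10.2% (5.88% without traces), and 9.16% in WT dermis and 6.43% in lymph node. Within library sets the order was the same, with 16.4% in epidermal A against 4.88% in dermal A, and 15.4% in epidermal C against 0% in dermal B. The run was singled out after its values were seen, and TRBD2 frame 3 was 1 of the D frames listed for reading.

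DWG members were not 1 expanded family. In epidermal B the 48 DWG members used 11 V and 6 J segments and formed 42 amino acid clonotypes. In epidermal A the 23 members used 12 V and 5 J segments, and in the CD103hi sort 38 members used 11 V and 6 J segments. Every DWG member of the skin libraries had a TRBJ2 segment. By reads the run made up 30.6%, 23.7% and 10.1% of member reads in epidermis A, B and C, 0.801% in dermal A, 14.9% in the CD103hi sort and 6.73% in lymph node. Among other complete clonotypes of the same libraries DWG was rarer in epidermis, between 2.22 and 6.10%. The same held in the CD103hi sort (6.79%) and lymph node (3.71%). In both dermal libraries it was slightly commoner in the others than in members (5.49% and 4.92%). This contrast is tied to the rule, since the run is read from TRBD2 and the others lacked a named D more often in every library. No D was named in 46.3% and 64.9% of the others in epidermis A and B, against 18.6% and 16.2% of members. In lymph node the shares were 31.3% and 25.8%. How much of the DWG contrast comes from this was not tested. Over skin libraries the largest numbers of DWG members came from TRBV13-3 (22 members), TRBV13-2 (21) and TRBV15 (12). The largest DWG members of the 3 epidermal libraries and the CD103hi sort, where the run was most frequent, are shown for their aspartate codon. It is built at the V-D join, from the V end or from D itself. In epidermal A its first 2 bases fit both TRBD2 and the palindrome of the V end.
epidermal A, TRBV12-2 and TRBJ2-1, 2213 reads: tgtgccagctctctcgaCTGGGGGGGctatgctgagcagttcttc
epidermal B, TRBV13-3 and TRBJ2-1, 1044 reads: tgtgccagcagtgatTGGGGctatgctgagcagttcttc
epidermal C, TRBV15 and TRBJ2-7, 1693 reads: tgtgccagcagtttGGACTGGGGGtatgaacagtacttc
CD103hi dermal, TRBV5 and TRBJ2-3, 467 reads: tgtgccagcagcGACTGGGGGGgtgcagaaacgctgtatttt

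**Figure D2:**
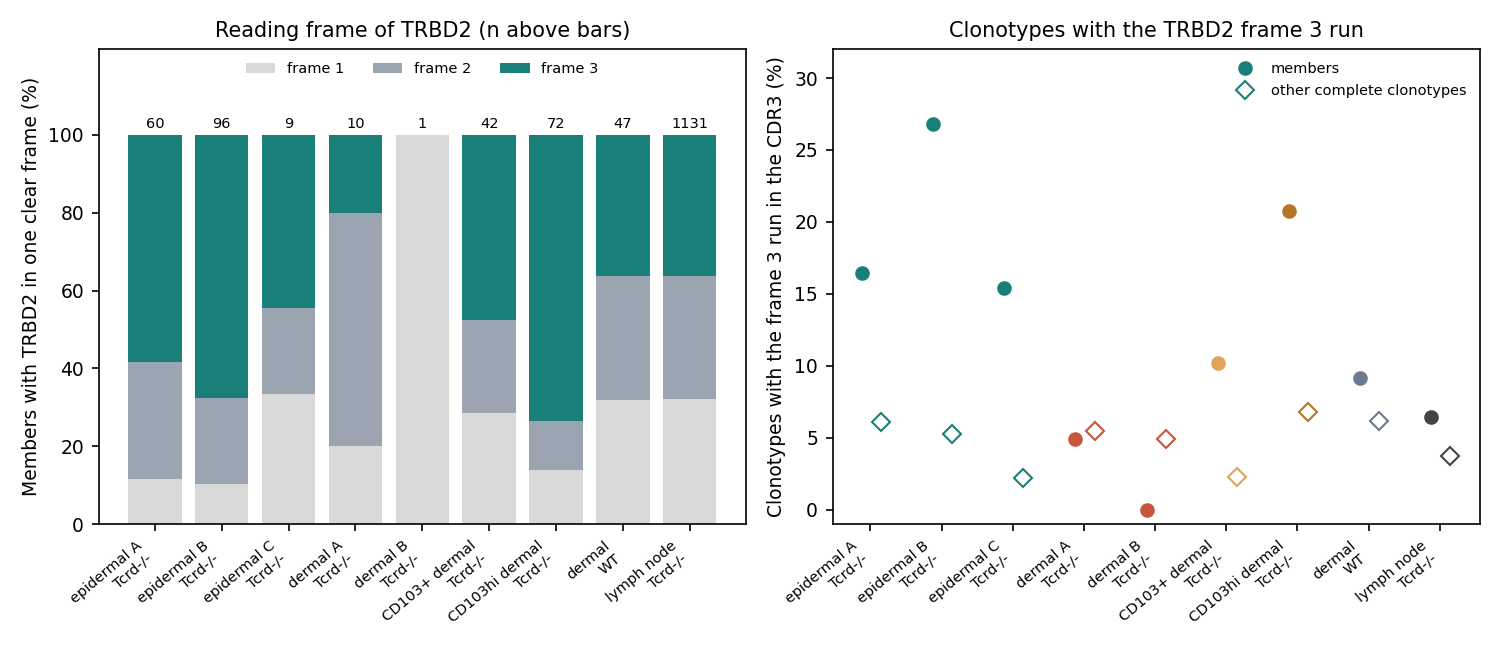
Left, codon frame of TRBD2 among members with 1 clear frame, in percent, with their number above each bar; right, percent of members (circles) and of other complete clonotypes (diamonds) with the frame 3 run, DWG, in the CDR3. Frame 3 holds 58.3, 67.7 and 44.4% in epidermis A, B and C, 73.6% in the CD103hi sort and 36.3% in lymph node, and DWG lies between 15.4 and 26.8% of members in epidermis and at 0 and 4.88% in bulk dermis.

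The other runs read from the D segments were closer between the groups than DWG. The widest gaps, epidermis minus dermis, were 5.66 points for WGG and -5.91 points for GTG, both with overlapping groups. WGG, also from TRBD2 frame 3, occurred in 9.29%, 11.2% and 3.85% of the members of epidermis A, B and C and in 4.88% and 0% of those of dermis A and B. LGG, read from TRBD2 frame 2, occurred in 7.86%, 7.82% and 7.69% of the members of epidermis A, B and C and in 9.76% and 0% of those of dermis A and B. TGG, which both D segments give in frame 1, occurred in 1.43%, 7.26% and 3.85% of epidermal members and in 7.32% and 7.69% of dermal members, with 14.5% in WT dermis. DRG, from TRBD1 frame 3, occurred in 2.86%, 3.91% and 3.85% against 4.88% and 7.69%. For TGG and DRG the epidermal values all lay below the dermal ones (exact permutation p = 0.2, adjusted p = 0.6).

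Both dermal libraries lay below all 3 epidermal libraries in the bases that members had lost at the J start. Mean J trimming, the germline J bases missing from the CDR3, was 3.16, 3.23 and 3.69 bases in epidermis A, B and C and 2.85 and 2.23 bases in dermis A and B. These groups did not overlap, at 3.36 ± 0.287 bases (SD, n = 3) against 2.54 ± 0.440 (SD, n = 2), with exact permutation p = 0.2 and adjusted p = 0.4 over 6 measures. Within library sets epidermal A exceeded dermal A by 0.311 bases and epidermal C exceeded dermal B by 1.46 bases. The CD103+ sort had 3.09, the CD103hi sort 3.27, WT dermis 2.70 and lymph node 2.25 bases. An exact germline J start was rare in skin, with 0.714%, 4.47% and 3.85% of members in epidermis A, B and C, 0 of 41 and 0 of 13 in dermis A and B, 1.09% in the CD103hi sort and 7.74% in lymph node. With starts that pass the germline end counted too, J was untrimmed in 18.6%, 15.6% and 11.5% of epidermal members, 19.5% and 23.1% of dermal ones, 25.5% and 15.3% of those of the CD103+ and CD103hi sorts, 22.1% in WT dermis and 34.7% in lymph node. J segments differ in how much they lose: TRBJ2-7 members lost 4.16 bases on average in epidermis, 4.10 in dermis and 3.07 in lymph node, while TRBJ2-3 members lost 1.92, 1 and 1.07 bases. TRBJ2-1 members lost 3.96 bases in epidermis (78 members) and 3.22 in dermis (9 members). The order did not hold segment by segment: of 11 J segments, 6 lost more in epidermis and 5 more in dermis, such as TRBJ2-2 with 2.55 and 3 bases and TRBJ1-2 with 1.27 and 3.5 bases, with at most 10 dermal members per segment. The epidermal excess in J trimming was 0.177 bases under strict germline matching and 0.510 bases without dermal B.

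V trimming overlapped between the groups, at 1.97 ± 0.152 bases (SD, n = 3 epidermal libraries) and 2.06 ± 0.192 bases (SD, n = 2 dermal libraries; exact permutation p = 0.4). It was 1.86 and 1.66 bases in the CD103+ and CD103hi sorts, 1.80 in WT dermis and 1.87 in lymph node. V ends differ between segments, as TRBV15 members lost 3.55 bases in epidermis and 3.33 in lymph node, while TRBV12-2 members lost 1 and 0.868. An exact germline V end was kept by 20%, 10.1% and 26.9% of epidermal members, 9.76% and 7.69% of dermal members, 20.8% of CD103hi members and 11.96% of lymph node members. The mean CDR3 of the members was 39.0, 39.6 and 39.1 bases long in epidermis and 40.2 and 39.7 bases in dermis, with 38.6 in the CD103+ sort, 39.0 in the CD103hi sort, 40.8 in WT dermis and 40.4 in lymph node. Epidermis and bulk dermis did not overlap but differed by -0.681 bases on average, at exact permutation p = 0.2 and adjusted p = 0.4. It was -0.11 bases when dermis included the CD103+ and CD103hi sorts, and -0.442 bases without dermal A. CDR3 lengths of members ranged from 18 to 57 bases over all libraries.

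**Figure D3:**
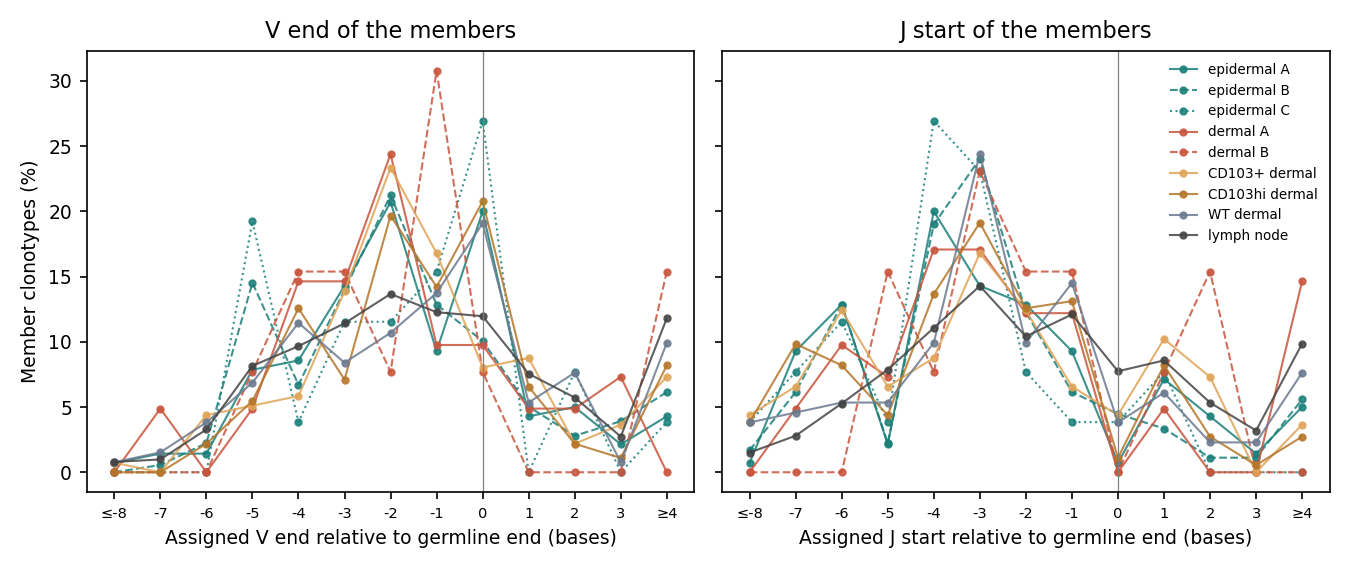
Distribution of the assigned V end (left) and J start (right) of members relative to the germline end, in bases, as percent of members in each library; negative positions are trimmed and positive ones pass the germline end. Epidermal J starts peak at 3 to 4 bases lost, and exact germline J starts (position 0) hold 0.714 to 4.47% of members in epidermis, 0% in both bulk dermal libraries and 7.74% in lymph node.

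Overlaps at the joins were present in 2 forms. In the deposited positions V and J overlapped only where no D was named, in 1026 of the 1341 such members, and no D-bearing member had an overlap. In 468 of the 1026 the overlap was longer than 3 bases. Germline ends with up to 4 palindromic bases explained 133 of these 468, so a deposited overlap need not be bases shared by both germline ends. Members with a deposited overlap made up 15.0%, 11.7% and 3.85% in epidermis, 14.6% and 23.1% in dermis and 19.5% in lymph node (epidermis minus dermis, exact permutation p = 0.4). That difference changed direction with the read minimum and with read weighting. The second form came from matching each CDR3 to germline V, D and J ends, where bases that fit both neighbours count as shared. Among members made of trimmed germline segments alone, with a D, at least 1 shared base at either join was found in 65.7%, 74.7% and 80% in epidermis A, B and C (46 of 70, 56 of 75 and 12 of 15). Bulk dermis had 47.4% and 57.1% (9 of 19 and 4 of 7), the CD103+ sort 63.6%, the CD103hi sort 71.6%, WT dermis 74.4% and lymph node 55.2% (712 of 1291). Epidermal values were all above the dermal ones, and WT dermis lay among the epidermal values. Sharing was commoner at V-D, with 47.1%, 61.3% and 60% in epidermis and 43.1% in lymph node, than at D-J, with 32.9%, 30.7% and 26.7% in epidermis and 21.3% in lymph node. Among lymph node members of this kind with TRBD2, 58.3% of 115 DWG members and 39.3% of 435 others shared a base at V-D; in epidermis the shares were 64.1% of 39 and 52.7% of 55.

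The rule and the germline sequences did not pick the same junctions. The deposited positions carried the V past its germline end in 1432 members (26.4%): in 539 of them the added bases were the palindrome of the V end, in 243 other bases followed an intact V end, and in 650 the germline part itself held a mismatch. Strict matching to germline segments explained 1826 members (33.7%) without inserted bases, and allowing up to 4 palindromic bases at an untrimmed end explained 3171 (58.5%). The shortest D named in the files was 5 bases, and matching accepted D stretches of 3 bases or more. The explained share was 65.5% among members with a D and 37.0% among those without. By reads the explained share was 98.2%, 94.7% and 98.8% of member reads in epidermis A, B and C and 93.2% in the CD103hi sort. It was 31.8% and 41.3% in bulk dermis A and B, 71.7% in the CD103+ sort, 68.0% in WT dermis and 61.3% in lymph node. Unexplained members of epidermal A and B had a median of 1 read, against 61 and 148 reads for explained ones. In dermal A the largest member, the TRBV13-3 and TRBJ2-5 clonotype shown above with 7160 reads, needed 3 inserted bases under matching. The largest members of epidermal B (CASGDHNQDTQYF, 1130 reads) and dermal B (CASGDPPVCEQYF, 1440 reads) needed 2 and 8. In the dermal B clonotype the J part differs from germline at 1 base. Its D bases match TRBD2 only inverted, which matching did not accept, so 8 can be too high. The largest member of each other library needed none with palindromic bases allowed.

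Matching also explained junctions that the rule leaves out. No D was named in any of the 31, 57 and 8 such clonotypes of epidermis A, B and C. They held 15.7%, 33.2% and 22.0% of reads of complete clonotypes in epidermis A, B and C, 5.93% and 3.94% in dermis A and B, 31.8% in the CD103hi sort, 5.15% in the CD103+ sort and 4.56% in lymph node. With them, reads from germline-only junctions reached 83.6%, 85.0% and 78.2% in epidermis and 76.5% in the CD103hi sort. The same sum was 13.3% and 7.62% in bulk dermis, 23.9% in the CD103+ sort, 15.9% in lymph node and 20.2% in WT dermis. The largest of them in each epidermal library are shown with the matched D bases in capitals, since each is a large clone left out by the rule.
epidermal A, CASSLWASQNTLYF, TRBV12-2 and TRBJ2-4, 1399 reads: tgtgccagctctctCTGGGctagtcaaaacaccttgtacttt
epidermal B, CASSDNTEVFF, TRBV13-3 and TRBJ1-1, 1745 reads: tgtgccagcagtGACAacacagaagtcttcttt
epidermal C, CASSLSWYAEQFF, TRBV29 and TRBJ2-1, 5254 reads: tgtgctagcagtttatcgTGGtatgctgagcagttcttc

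**Figure D4:**
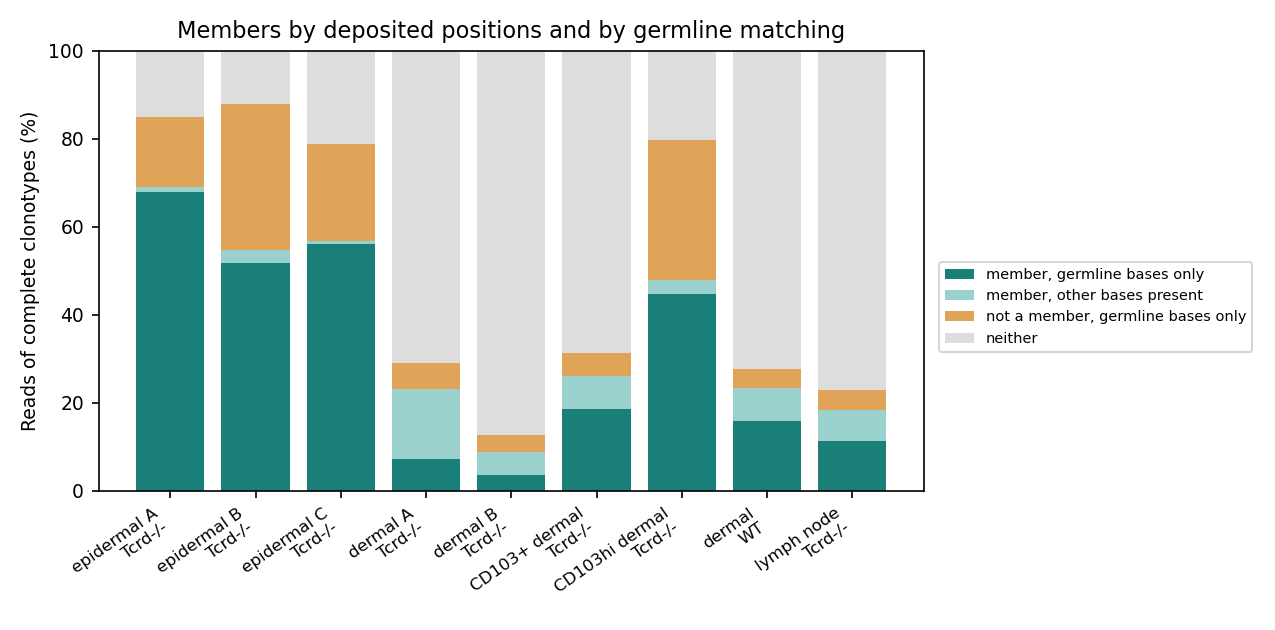
Reads of complete clonotypes in each library, in percent, split by whether the deposited positions leave 0 inserted bases (member) and whether germline V, D and J ends with up to 4 palindromic bases explain the whole CDR3. Members made of germline bases only hold 67.9, 51.8 and 56.2% of reads in epidermis A, B and C, 7.35 and 3.67% in bulk dermis and 44.7% in the CD103hi sort.

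No difference in segment usage between members and the other complete clonotypes of the same library passed the adjusted threshold. Of 23 TRBV and TRBJ segments with at least 10 clonotypes in at least 5 libraries, 0 passed the adjusted threshold of 0.05 in the exact sign-flip permutation over 9 libraries (0.0% called), and 5 had an unadjusted p under it (21.7%), 3 higher in members (13.0%) and 2 lower (8.7%). TRBV1 (chr6:40891229-40891885, GRCm38) was lower in members in 9 of 9 libraries, with a mean difference of -4.0 percentage points (exact p = 0.00391, adjusted p = 0.0898). It was found in 0 of 41, 0 of 13 and 0 of 26 members of dermal A, dermal B and epidermal C, which allow up to 7.32%, 23.1% and 11.5%, against 7.14%, 14.8% and 4.44% of the others there. When members were set by germline matching, TRBV1 was lower in 5 of 9 libraries, with a mean difference of -0.566 points, and with palindromic bases allowed it was higher by 1.12 points. TRBV12-2 (chr6:41118851-41119364) was higher in members in 8 of 9 libraries, by 2.72 points (exact p = 0.0234, adjusted p = 0.1797), with 10%, 7.26% and 7.69% of epidermal members against 6.71%, 4.33% and 2.22% of the others. TRBJ2-1 (chr6:41542754-41542803) was higher in 8 of 9 libraries, by 3.45 points (exact p = 0.0156, adjusted p = 0.1797), with 24.3% and 24.0% of the members of epidermis A and B but 3.85% in epidermal C. TRBV13-3 differed by -2.65 points and TRBJ2-2 by 1.89 points, both at exact p = 0.0469 and adjusted p = 0.216.

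The 3 V segments used most by epidermal members were also frequent in dermal members. TRBV13-2 (chr6:41121396-41121832) gave 15.0%, 12.8% and 23.1% of epidermal members, 22.0% and 23.1% of dermal ones and 10.6% of lymph node ones. TRBV13-3 gave 5.00%, 14.5% and 11.5% in epidermis and 14.6% and 15.4% in dermis. TRBV16 (chr6:41151740-41152230) gave 7.86%, 6.15% and 15.4% in epidermis and 12.2% and 15.4% in dermis. TRBV15 (chr6:41141188-41141658) gave 5.71%, 4.47% and 15.4% of epidermal members and 0 of 41 and 0 of 13 dermal ones, which allow up to 7.32% and 23.1%. TRBV3 gave 6.43%, 12.3% and 7.69% in epidermis and was likewise found in 0 of 41 and 0 of 13 dermal members. TRBV29 gave 3.57%, 2.23% and 0% in epidermis and 9.76% and 15.4% in dermis. TRBV5 led in the CD103hi sort, with 19.1%, and equalled TRBV13-2 in dermal B, at 23.1% of 13 members. Among J segments, TRBJ2-7 (chr6:41543810-41543856) had the most members over all libraries (900), with 22.1%, 18.4% and 23.1% of epidermal members, 22.0% and 7.69% of dermal ones and 15.9% of lymph node ones. TRBJ2-1 lay above it in epidermis A and B, and TRBJ2-3, with 23.1%, led in dermal B. TRBJ2-5 gave 10.7%, 25.7% and 3.85% in epidermis, leading in epidermal B, and TRBJ2-4 10%, 12.3% and 11.5%. The TRBJ1 cluster supplied 20%, 14.5% and 34.6% of epidermal and 31.7% and 46.2% of dermal members, with overlapping groups (exact permutation p = 0.4, adjusted p = 0.4).

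In each epidermal library the median member had more reads than the median other clonotype. The median member had 28.5, 21 and 175.5 reads in epidermis A, B and C, and the median other clonotype 2, 2 and 1 reads. In the CD103hi sort the medians were 7 and 2 reads, in WT dermis 104 and 102, in the CD103+ sort 2 and 2 and in lymph node 2 and 1. Dermal A had 4 and 3.5 reads, and dermal B went the other way with 1 and 93 reads. Members were larger in 7 of 9 libraries, smaller in 1 and tied in 1, with a mean difference of 1.24 ± 3.79 (SD) in median log2 reads (exact sign-flip permutation p = 0.352, adjusted p = 0.469 over 4 measures). That mean difference was 2.21 without dermal B and 0.466 without epidermal C. With a minimum of 10 reads per clonotype the difference was -0.12 on the log2 scale. Among the 10 largest complete clonotypes of a library, members numbered 7, 4 and 5 in epidermis A, B and C, 3 and 1 in dermis A and B, 5 in the CD103hi sort, 2 in the CD103+ sort, 3 in WT dermis and 1 in lymph node. Of all complete clonotypes, members were 46.1%, 46.3% and 36.6%, 18.4% and 17.6%, 45.3%, 30.9%, 20.2% and 17.4% in that order. The count in epidermal B was thus below its share, and that in the CD103hi sort near it.

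A few clones carried the member reads of some libraries. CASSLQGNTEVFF (TRBV15, TRBD1, TRBJ1-1) was the largest clonotype of epidermal C, with 9570 reads or 21.8% of the library, and germline ends explain it with 1 base shared by V and D. The 3 largest members held 62.1% of member reads in epidermal C, 80.6% in dermal A and 79.7% in dermal B, but 19.97% and 11.7% in epidermis A and B and 0.388% in lymph node. The largest member of dermal A alone held 13.5% of that library's reads and was also listed with 11 reads in lymph node. In epidermal A the TRBV12-2 clonotype with DWG and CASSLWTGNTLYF held 4.80% and 4.53% of the library. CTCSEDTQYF, the largest member of the CD103hi sort, joins TRBV1 to TRBJ2-5 with no D and held 4.36% of that library. Its deposited V and J positions overlap by 4 bases, while germline matching rebuilds it with 0 inserted bases from a trimmed V and J.

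**Figure D5:**
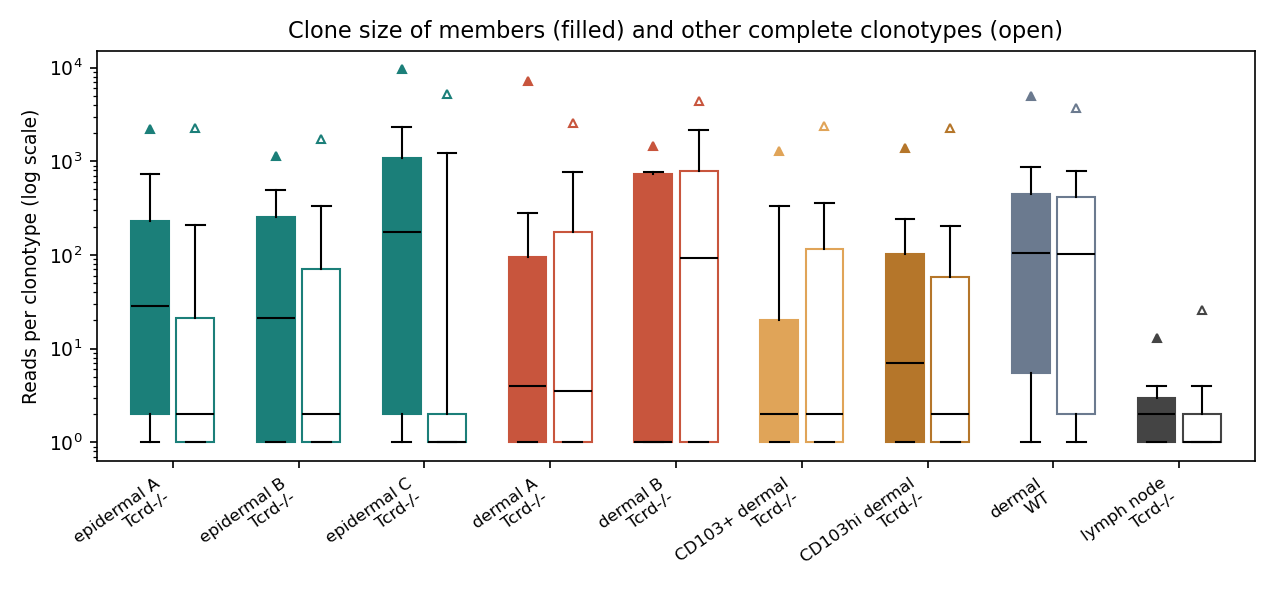
Reads per clonotype (log scale) of members (filled) and other complete clonotypes (open) in each library; boxes span the 25th to 75th percentile with the median as a line, whiskers the 10th to 90th percentile, and triangles mark the largest clonotype. Median members lie at 28.5, 21 and 175.5 reads in epidermis A, B and C against 2, 2 and 1 for the others, and at 1 against 93 in dermal B.

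Convergence, the same V, J and protein CDR3 encoded by several nucleotide CDR3 sequences, did not differ between members and other clonotypes beyond the spread over libraries. Among member amino acid clonotypes, 2 of 137, 10 of 168 and 2 of 24 had more than 1 member version in epidermis A, B and C, 3 of 38 and 0 of 13 in dermis A and B, 11 of 172 in the CD103hi sort and 168 of 4396 in lymph node. The test instead counted clonotypes with any second version in their library. In epidermis A, B and C these were 4.29%, 14.0% and 15.4% of members and 10.4%, 13.9% and 4.44% of others. In dermis A and B they were 17.1% and 0% of members against 1.65% and 6.56% of others, and in lymph node 11.9% against 7.56%. Clonotypes with several versions were 2.64 ± 7.42 percentage points (SD) commoner in members, higher in 5 of 9 libraries (exact sign-flip permutation p = 0.340, adjusted p = 0.469). The difference was 1.04 points without dermal A and 1.60 without epidermal C. No clonotype had more than 3 member versions in any library. The clearest case by join was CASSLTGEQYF (TRBV16, TRBJ2-7) of the CD103+ sort, reached once with TRBD1 and once with TRBD2.
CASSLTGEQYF with TRBD1, 593 reads: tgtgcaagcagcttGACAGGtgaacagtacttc
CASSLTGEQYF with TRBD2, 325 reads: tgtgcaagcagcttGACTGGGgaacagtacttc

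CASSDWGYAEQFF (TRBV13-3, TRBJ2-1) of epidermal B had 3 versions with 1044, 13 and 2 reads. By the deposited positions the largest reads its aspartate codon wholly from the V end, and the next takes the last base of that codon from TRBD2. The version with 2 reads differed from the one with 13 reads only within the V part.
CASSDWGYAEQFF, 1044 reads: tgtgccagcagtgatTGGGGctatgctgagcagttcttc
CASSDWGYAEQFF, 13 reads: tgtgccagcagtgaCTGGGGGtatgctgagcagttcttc

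In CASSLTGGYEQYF of the CD103+ sort the versions had 160, 17 and 1 reads, and in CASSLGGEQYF of epidermal C 1351 and 81 reads. In both, the smaller versions had the same joins as the largest and differed from it only within the V or J part. Whether such versions are separate joins or base errors was not tested. The 3 versions of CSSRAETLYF in epidermal A had 61, 3 and 3 reads, and both small ones lay 1 base from the large one.

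Members were listed in other library sets more often than other clonotypes in 7 of 9 libraries, a difference that did not pass the adjusted threshold. A member's V, J and protein CDR3 was also listed in another set for 6.43%, 6.15% and 23.1% of members of epidermis A, B and C, against 1.22%, 9.13% and 11.1% of the others. It was so for 4.88% and 7.69% of members against 1.65% and 4.92% of others in dermis A and B, and for 0.984% against 0.323% in lymph node. The mean difference was 3.53 ± 4.32 percentage points (SD), higher in 7 of 9 libraries (exact sign-flip permutation p = 0.0352, adjusted p = 0.141). With members set by strict germline matching the difference was 11.0 points, higher in 9 of 9 libraries. The exact sign-flip permutation p was 0.00391, the smallest 9 libraries can give, with adjusted p = 0.0156. Over all alternatives the adjusted p ran from 0.0156 to 0.438. A clonotype listed in several sets counts in every library that holds it. The 9 differences are therefore not independent, and these p-values can be too small. Strict matching gave 9.62%, 17.9% and 27.3% of germline-only clonotypes in epidermis against 0.508%, 3.04% and 10.2% of the others, and 25.4% against 4.57% in WT dermis.

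Of 5051 member amino acid clonotypes, 35 were members in 2 or more library sets, 13 of them in 2 or more skin sets, and 14 of the 35 had more than 1 nucleotide CDR3. A clonotype of TRBV13-3, TRBD1 and TRBJ1-1 was the only member found in 4 libraries, with 225 reads in dermal A, 606 in the CD103+ sort, 138 in the CD103hi sort and 5 in lymph node, always with the same nucleotides, in which 2 C bases, the palindrome of the TRBD1 start, precede the TRBD1 stretch.
TRBV13-3 with TRBJ1-1: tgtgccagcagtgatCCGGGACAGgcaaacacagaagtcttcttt

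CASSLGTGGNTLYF (TRBV16, TRBJ1-3) had 685 reads in epidermal B and 1 in the CD103hi sort with 1 nucleotide CDR3, and 4 reads in lymph node with another. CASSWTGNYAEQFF (TRBV3, TRBJ2-1) had 683 reads in epidermal B, 2 in the CD103+ sort and 3 in lymph node. A TRBV12-2 and TRBJ2-2 clonotype had 429 reads in epidermal A, 3 in the CD103hi sort and 1 in lymph node. In these 3 clonotypes 1 epidermal library held nearly all the reads.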

How the data were processed

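β chain transcripts of 9 pooled sorted T cell samples were amplified by 5′ RACE and sequenced on a MiSeq, per the labels' protocols. The caller, error correction and genome build of the deposited tables are not given in the sources used here. Per the file headers, the authors deposited a read count per clonotype and a fraction of the library's reads, with segments and 0-based segment positions in the CDR3. Inserted bases were counted from those positions. Germline V ends, D and J starts came from GENCODE M21 transcripts (GRCm38); a V was available for all members. Matching accepted D stretches of at least 3 bases in forward orientation and, as an alternative, up to 4 palindromic bases. Strict matching recovered every simulated junction built without inserts and never gave more inserted bases than were put in. The simulated junctions held no mismatch to the germline segments, so the simulation cannot show this for CDR3 sequences that do. Inserted bases that happen to match a segment go uncounted, so germline-only shares can be too high. Matching stops at the first mismatch in V or J, and germline bases beyond it can count as inserted, so these shares can also be too low. Matching with palindromic bases was not simulated.

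Epidermal (n = 3) and bulk dermal (n = 2) libraries were set against each other in an exact two-sided permutation test with 10 splits, where the smallest p is 0.2. Members and other complete clonotypes were compared by exact two-sided sign-flip permutation over 9 libraries. p-values were adjusted by Benjamini-Hochberg and measure only the spread between these libraries, since nothing says how animals were divided between pools. Trimming, overlaps, length and D calls of members against others are tied to the rule and were not tested. The 2 largest members per library, the most convergent and the most widely shared members, the most used segments and the runs of 3 residues read from the D segments were named. The members, lists and tests were chosen with earlier results of these data known. Alternatives were a minimum of 2 or 10 reads, germline matching, removal of low-read neighbours (within 1 base of a clonotype at least 20 times larger) and of traces, read weighting and leaving out libraries; the minimum of 10 reads, palindromic bases, traces and the repeats for the DWG run were added after seeing the data. Computations used Python 3.11.15, numpy 2.4.6, pandas 2.3.3 and scipy 1.17.1. The γ chain library was not used here.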

Additional observations from a re-analysis of the deposited data

How the results depend on the processing

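J trimming, CDR3 length and the DWG run kept their direction between epidermis and dermis under all 10 alternatives and on leaving out each of the 5 libraries; the DWG difference ran from 10.6 to 21.1 percentage points. J trimming ran from 0.177 (germline matching) to 1.70 bases (by reads), and from 0.510 (without dermal B) to 1.13 (without dermal A) on leaving out libraries. CDR3 length ran from -3.11 (by reads) to -0.11 bases (with both CD103 sorts added), and from -0.92 (without dermal B) to -0.442 (without dermal A). No alternative brought an adjusted p under 0.05 there, which 3 libraries against 2 cannot give. V trimming turned to 0.0603 bases with both CD103 sorts added and ran from -0.23 to 0.0460 (without dermal A) on leaving out single libraries. The join overlap difference turned positive at a minimum of 2 reads (2.97 points) and of 10 reads (3.04), under germline matching (19.1; 7.25 with palindromic bases) and by reads (8.16). The difference in members without D did so too, at 5.89, 4.33, 0.868, 1.77 and 9.34 points in that order. Under germline matching both are other measures: overlap then means bases shared at any join, D is the matched one and matching sets the members. Those values are not the same difference with its sign changed. The TRBJ1 difference was 6.21 points by reads. Pairing by replicate letter (replicate block) gave 0.657 bases for J trimming and 19.2 points for the DWG run and reversed no direction. Deviations of A with A and B with B correlated at -0.20 and -0.35. With only 2 dermal libraries their deviations mirror each other, so these correlations cannot show whether equal letters belong together. The labels do not say so, and the letters are treated as names only.

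For members against others, germline matching gave -0.370 points for several versions (-0.323 with palindromic bases) and 11.0 points (9.75) for recurrence in another set, both past the threshold for the latter. The recurrence differences share clonotypes across libraries, so their p-values can be too small. Clone size was -0.12 on the log2 scale at 10 reads and ran from 0.466 (without epidermal C) to 2.21 (without dermal B) on leaving out libraries. Several versions ran from 1.04 (without dermal A) to 3.79 points (without dermal B). The TRBJ1 difference was -0.336 points by reads and ran from -2.63 (without dermal B) to 2.13 on leaving out libraries, with -0.112 without epidermal C. In every setting 0 of the segments passed.

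The insert-free share moved beyond its interval in epidermis A, B and C to 52.4%, 52.0% and 55.6% at 2 reads and 62.8%, 53.9% and 68.0% at 10 reads. Strict germline matching gave 34.6% and 31.9% in epidermis A and B, 12.3% in dermal A, 19.9% and 33.2% in the CD103+ and CD103hi sorts, 9.08% in WT dermis and 8.05% in lymph node. With palindromic bases WT dermis had 14.0% and lymph node 14.1%. Lymph node had 18.3% at 2 and 22.4% at 10 reads, the CD103+ sort 26.3% at 10 reads, and dermal A 13.8% without traces. Dermal B, with 13 members, and epidermal C, with 26, limit the precision of every group mean. The causes of these changes were not tested.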

Other observations

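In 44 of the 4082 members with a D, the assigned D bases matched the named germline segment exactly only in inverted orientation, 22 with TRBD1 and 22 with TRBD2. Of these, 42 came from lymph node, 1 from dermal A and 1 from dermal B, and 0 from the epidermal libraries, the CD103 sorts and WT dermis. The dermal B clonotype is its largest member, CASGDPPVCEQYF with 1440 reads, or 39.0% of the member reads of that library, and its capitals CCCCCAGT are the reverse complement of a TRBD2 stretch. Such members held 6.59% of member reads in dermal A and 0.765% in lymph node. Whether they are inverted D segments or inserted bases was not tested. A further 403 members with a D matched neither orientation exactly.

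TRBD2 lies downstream of the TRBJ1 cluster, so deletional joining does not bring them together. The files nevertheless named TRBD2 in 108 of 1092 members with a TRBJ1 segment and a D (9.89%), 105 of them in lymph node and 1 each in epidermal B, the CD103+ sort and WT dermis.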
